A study of Mus musculus with 4 samples.

Results

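In all, 10 genes of fibroblast growth factor (FGF) signalling were followed in cultured hair follicle mesenchyme: 5 ligands (Fgf1, Fgf2, Fgf7, Fgf10 and Fgf18), 2 receptors (Fgfr1 and Fgfr2) and 3 Sprouty genes (Spry1, Spry2 and Spry4). They were the rows of the gene count matrix that carried those names, 10 of 51826 rows, and all 10 passed the filter of a mean raw count of at least 10 that left 16734 genes. The matrix held 4 libraries, 1 for each group: cells of the dermal papilla (DPCs) and of the surrounding dermal sheath (DSCs) of mouse whisker (vibrissa) follicles, each at passage 3 and at passage 9. According to the study's methods the donor mice carried an EGFP transgene, while the labels give the genotype as WT for every library; no other allele or agent was named, and all cells were grown in DMEM. The study compared low-passage with high-passage cells to ask how passage bears on the homing of injected cells to follicles. With 1 library for each group, no difference between groups had a replicate check, and culture, extraction and passage cannot be told apart.

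FGFs are secreted or cell-bound ligands that bind receptor tyrosine kinases together with heparan sulphate and pass their signal through the Ras and MAP kinase relay. In the follicle, Fgf7 and Fgf10 are made by the mesenchyme and act on the epithelial splice form of Fgfr2, Fgf18 is known for its part in the resting phase of the hair cycle, and Fgf2 is a common mitogen of cultured fibroblasts. Sprouty proteins are made in response to receptor signalling and dampen it. Receptor splice forms are not separated by counts per gene, so the values of Fgfr1 and Fgfr2 are sums over their forms.

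The 250 bases before the annotated start were read from the RefSeq promoter table (GRCm38.p6) for 7 of the 10 members: Fgf2, Fgf7, Fgf10, Fgf18, Fgfr2, Spry1 and Spry2. Shown here are Fgf18, a ligand that rose in both cell types, Fgf7, the ligand with the highest level in every library, and Spry1 and Spry2, related inhibitors with unlike values across passage. Each runs 5′ to 3′ on the gene's own strand, and capitals mark CG dinucleotides: Fgf18 at chr11:33147401-33147650 (minus strand), Fgf7 at chr2:126034408-126034657 (plus strand), Spry1 at chr3:37639697-37639946 (plus strand) and Spry2 at chr14:105896820-105897069 (minus strand).
Fgf18: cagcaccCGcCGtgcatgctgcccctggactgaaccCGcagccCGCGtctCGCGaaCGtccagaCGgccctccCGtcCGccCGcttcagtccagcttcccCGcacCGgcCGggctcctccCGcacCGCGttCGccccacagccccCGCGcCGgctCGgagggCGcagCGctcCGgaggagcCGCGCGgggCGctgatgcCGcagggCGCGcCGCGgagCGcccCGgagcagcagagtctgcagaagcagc
Fgf7: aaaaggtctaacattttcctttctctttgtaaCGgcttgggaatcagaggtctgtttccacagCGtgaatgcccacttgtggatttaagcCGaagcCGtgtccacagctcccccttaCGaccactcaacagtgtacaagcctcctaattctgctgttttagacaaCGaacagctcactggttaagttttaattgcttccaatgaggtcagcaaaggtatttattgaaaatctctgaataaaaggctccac
Spry1: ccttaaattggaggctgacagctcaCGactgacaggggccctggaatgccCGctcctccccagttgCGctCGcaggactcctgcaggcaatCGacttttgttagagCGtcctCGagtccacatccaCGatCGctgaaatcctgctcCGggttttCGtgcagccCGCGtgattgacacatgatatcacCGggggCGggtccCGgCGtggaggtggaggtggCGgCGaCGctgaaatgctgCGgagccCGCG
Spry2: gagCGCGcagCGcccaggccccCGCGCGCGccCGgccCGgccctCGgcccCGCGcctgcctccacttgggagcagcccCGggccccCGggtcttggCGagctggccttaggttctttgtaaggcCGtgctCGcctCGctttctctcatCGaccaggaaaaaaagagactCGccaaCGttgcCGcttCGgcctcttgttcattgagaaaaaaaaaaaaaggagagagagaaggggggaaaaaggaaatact
The Fgf18 window was 77.2% G and C with 37 CG dinucleotides, against medians of 52.4% and 6 over 32841 windows of the same length. Fgf7 stood at 43.6% with 6 CG dinucleotides. Spry1 and Spry2 were alike in this respect, each with 62.4% G and C and 23 CG dinucleotides. A GC box, GGGCGG on either strand, was present in 4 of the 7 windows (Fgf2, Fgf10, Fgf18 and Spry1) and in 32.7% of all windows. Neither an ETS core, CCGGAA, nor a TCF/LEF core, CTTTGA, was found on either strand of the 7 windows, and 12% and 13.8% of all windows held one. These matches describe the letters in the windows only.

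Deposited totals ran from 34981284 to 47604059 counts a library. The 10 papilla markers did not separate the cell types in one direction. Sox2 had 1677 and 1491 counts in DPCs and 269 and 178 in DSCs, whereas Ncam1 had 3642 and 1673 in DPCs and 11755 and 15584 in DSCs. The study counted NCAM among the markers of both cell types and stained both for SOX2. Over the 6 genes of the list that were tested, the median log2 ratio of DPCs to DSCs at passage 3 was -0.02. Several defining markers were nearly absent where DPCs were labelled: at passage 3 Alpl had 8 counts, Lepr 18, Prom1 7, and Corin and Sox18 none, and Lef1 fell from 508 counts at passage 3 to 2 at passage 9. Of 7 sheath markers, 2 differed by 2-fold or more at passage 3, both with more in DPCs (Itga8 and Myh11, list median log2 ratio 0.38). In the passage 9 libraries 6 of the 7 were 2-fold or more lower in DPCs than in DSCs (median -1.28), with Myh11 and Mylk past 4-fold. The most abundant, Acta2, stood at 7123 and 1871 CPM in DPCs and 5728 and 4330 CPM in DSCs. CPM are counts scaled to library size. General fibroblast markers were high apart from Lum (at most 2.39 CPM), with summed levels of 16683, 5933, 25059 and 22467 CPM in DPCs at passage 3 and 9 and DSCs at passage 3 and 9, in that order. The genes of this list did not move together. Across passage Col1a1 went from 7242 to 1218 CPM in DPCs and from 10682 to 8261 CPM in DSCs. Pdgfra went from 304 to 811 and from 121 to 266 CPM, and Dcn from 116 to 153 and from 86.8 to 1965 CPM. Of 7 keratinocyte markers, 5 had no count in any library. Summed proliferation genes (10 listed, such as Mki67 and Top2a) were lower at passage 9, at 210.2 against 795 CPM in DPCs and 299.8 against 668 CPM in DSCs. Endothelial and Schwann cell markers were scarce and also lower at passage 9: the endothelial list summed to 2.53 and 0.11 CPM in DPCs and to 5.48 and 0.99 CPM in DSCs, and the Schwann cell list to 11.2 and 3.65 CPM and to 28.0 and 5.09 CPM. Immune markers went from 113 to 63.7 CPM and from 164 to 92.3 CPM. The part of these lists in the differences given here was not tested, and a changed share of cells cannot be told apart from changed RNA for each cell.

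Across passage, Fgf1 and Fgf18 rose at least 4-fold in both cell types. Fgf10 rose past 4-fold in DSCs, where Fgf2 fell past 4-fold, and no member fell past that size in DPCs. The 4-fold threshold is that of the study, applied here to the log2 ratio of CPM after TMM scaling with a prior count of 2. In DPCs 2 of 10 members were past it upward, against 5.58% of all genes tested, and 0 downward, against 4.36%. In DSCs 3 of 10 were past it upward, against 2.67% of genes tested, and 1 downward, against 1.16%. The 2 members called upward in both cell types compare with 1.27% of genes, and 0 members were called downward in both, against 0.508%, or in opposite directions, against 0.215%. Fgf1 and Fgf18 are also among the raised genes that the study picked from these same libraries, so their direction is not independent evidence. The median log2 change over the 10 members was 0.84 in DPCs and 0.83 in DSCs, beside 0.03 and 0.00 over all genes tested.

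**Figure D1:**
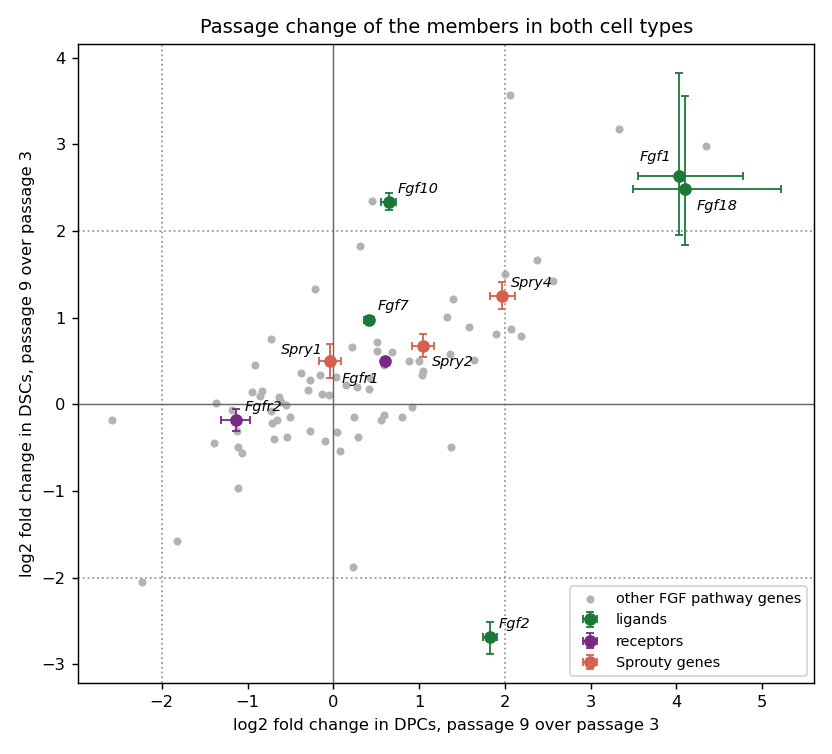
Log2 change from passage 3 to passage 9 in DPCs (x axis) and DSCs (y axis) for the 10 members, with 95% counting intervals as bars and other FGF pathway genes without a library at 0 in grey, 1 library a group. Dotted lines mark 4-fold. Fgf1 (4.03 and 2.64) and Fgf18 (4.11 and 2.49) lie past 4-fold on both axes, and Fgf2 is the member with changes of 1.83 in DPCs and -2.69 in DSCs.

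Fgf18 was counted 13 times in DPCs at passage 3, 248 in DPCs at passage 9, 14 in DSCs at passage 3 and 105 in DSCs at passage 9. It lies on the minus strand at chr11:33117430-33147400, and it was near the bottom of the range in both passage 3 libraries. The log2 change was 4.11 in DPCs (95% exact counting interval 3.49 to 5.22) and 2.49 in DSCs (1.83 to 3.56). These intervals compare the libraries and cover counting error only. The cell types had almost the same level at passage 3, with a log2 ratio of DPCs to DSCs of -0.06 (-1.27 to 1.13), and at passage 9 the ratio was 1.56 (1.25 to 1.93). The deposited FPKM, a level corrected for gene length and depth, went from 0.286 to 5.82 in DPCs and from 0.287 to 1.80 in DSCs.

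Fgf1, a ligand that binds all the main FGF receptors, was as scarce as Fgf18 in young cultures. It had 25 counts in DPCs and 12 in DSCs at passage 3, and 427 and 102 counts at passage 9. The log2 change was 4.03 in DPCs (3.55 to 4.77) and 2.64 in DSCs (1.96 to 3.82), so the highest of the 4 libraries was DPCs at passage 9. There the log2 ratio of DPCs to DSCs was 2.38 (2.10 to 2.74), and it was 1.73 when computed from FPKM, under the 4-fold threshold. Fgf1 lies on the minus strand of chromosome 18 (38838673 to 38929404) and shared no exonic base with another gene in GENCODE M21.

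The genes whose pattern over the 4 libraries was closest to that of Fgf18 were Lamc3, a laminin chain, at a distance of 0.333 (Euclidean, centred log2 CPM, 12192 candidates), Slc25a23 at 0.367 and Syt3 at 0.443. For Fgf1 the nearest of 12191 candidates were 1500015O10Rik at 0.573, Frat2 at 0.612 and Plat, the tissue plasminogen activator, at 0.634. Lamc3 had 53 and 1191 counts in DPCs and 66 and 530 in DSCs, and Plat 3352 and 67277, then 1876 and 9005. The distances rest on 4 libraries and are given as a description.

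Fgf2 was the member whose passage changes had opposite signs by more than 2-fold. It had 1590 counts in each cell type at passage 3, then 5499 in DPCs and 295 in DSCs at passage 9. DPCs at passage 9 stood highest, DSCs at passage 9 lowest, and the passage 3 libraries lay together between them. The log2 change was 1.83 in DPCs (1.75 to 1.91) and -2.69 in DSCs (-2.88 to -2.52), and the cell types differed by 0.04 (-0.06 to 0.14) at passage 3 and by 4.55 (4.40 to 4.74) at passage 9. Opposite changes of at least 2-fold in each cell type were seen for 1 of 10 members, against 1.33% of genes tested. Whether the passage changes differ between cell types was not tested, since each rests on 1 library a group.

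The size of the Fgf2 fall in DSCs depended on the unit. In FPKM the level went from 6.46 to 3.04 in DSCs, a log2 change of -1.06 that was short of 4-fold, and from 6.92 to 26.3 in DPCs, a change of 1.91. Counts divided by FPKM and by library size, which act as a transcript length in kilobases, were 6.50, 5.99 and 6.35 for Fgf2 in DPCs at passage 3, DPCs at passage 9 and DSCs at passage 3, but 2.04 in DSCs at passage 9. The highest was 3.19 times the lowest, and 0.229% of 14412 genes had a wider spread. Fgf1 had the next widest spread among the members, 1.97 times, with 2.41 in DSCs at passage 9 and 3.83 to 4.73 elsewhere, and the remaining 8 members stayed within 1.08 times. Fgf2 has 8 annotated transcripts, and 640 of its exonic bases (9.44%) overlap Nudt6 on the opposite strand. Nudt6 had 55, 48, 37 and 54 counts in the 4 libraries, under Fgf2 in each. Whether the counting used strand is not given in the sources used here. The part of transcript choice in the Fgf2 difference was not tested.

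**Figure D2:**
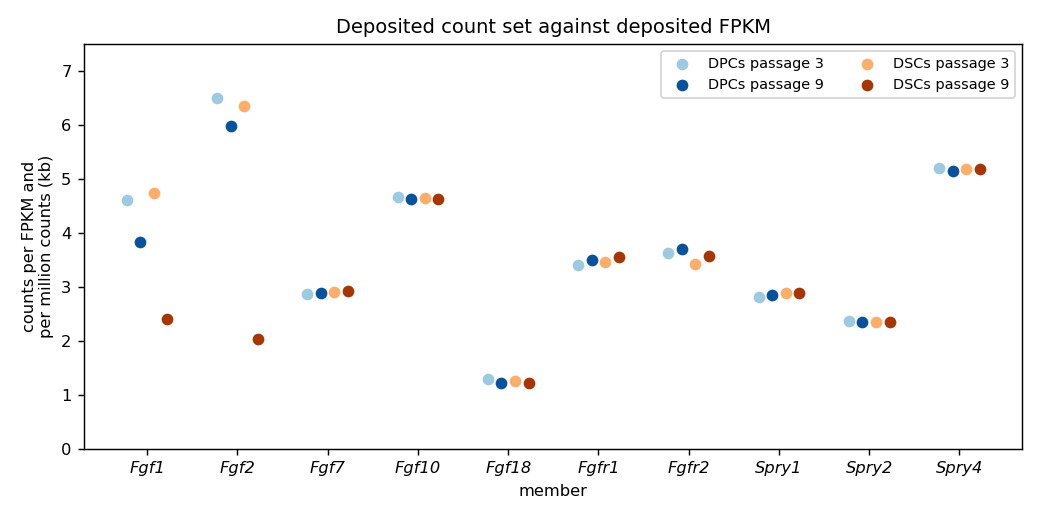
Raw counts divided by FPKM and by library size (y axis, in kilobases) for each member in each of the 4 libraries. Fgf2 stands at 5.99 to 6.50 in 3 libraries and at 2.04 in DSCs at passage 9, Fgf1 is also lowest there at 2.41, and the remaining members are level.

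Fgf7 (keratinocyte growth factor) was the leading ligand per length in every library. Its counts were 4460 in DPCs at passage 3, 5804 in DPCs at passage 9, 6853 in DSCs at passage 3 and 16216 in DSCs at passage 9. DSCs were above DPCs at both passages, with log2 ratios of DPCs to DSCs of -0.58 (-0.63 to -0.52) at passage 3 and -1.14 (-1.18 to -1.09) at passage 9. The log2 change with passage was 0.42 in DPCs (0.36 to 0.47) and 0.98 in DSCs (0.94 to 1.02), both short of 2-fold.

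Fgf10, a close relative of Fgf7 that signals through the same receptor form, had 1840 counts in DPCs and 1078 in DSCs at passage 3, and 2807 and 6546 at passage 9. DSCs therefore went from the lowest of the 4 libraries to the highest. The log2 change was 0.65 in DPCs (0.56 to 0.73) and 2.34 in DSCs (2.24 to 2.43), and the log2 ratio of DPCs to DSCs was 0.81 (0.71 to 0.92) at passage 3 and -0.88 (-0.94 to -0.81) at passage 9. On the FPKM scale Fgf7 exceeded Fgf10 by a factor of 3.94 in DPCs and 10.2 in DSCs at passage 3, and by 3.31 and 3.92 at passage 9. An antisense transcript, Gm16263, shares 123 exonic bases with Fgf10 and had 29 to 65 counts.

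The makeup of the 5 ligand messages can be read from FPKM, which is corrected for length. Their summed level was 62.6 in DPCs and 73.6 in DSCs at passage 3, and 110.04 and 152 at passage 9. Fgf7 made up 70.4% of the sum in DPCs at passage 3 and 52.2% at passage 9, while in DSCs it made up 82.6% and 76.7%. Fgf2 had 11.1% and then 23.9% in DPCs, where it took the place of Fgf10 as the second ligand, and 8.78% and then 2.0% in DSCs. The Fgf2 share in DSCs at passage 9 rests on an implied length of 2.04 kilobases, against 5.99 to 6.50 in the remaining libraries. For Fgf1 that length was 2.41, against 3.83 to 4.73, so the shares of both in that library depend on the unit. Fgf10 accounted for 17.9% and 15.8% in DPCs and for 8.13% and 19.5% in DSCs. Fgf18 reached 5.29% and Fgf1 2.90% in DPCs at passage 9, the largest shares they had in any library, so the genes with the greatest fold changes stayed minor parts of the ligand message.

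**Figure D3:**
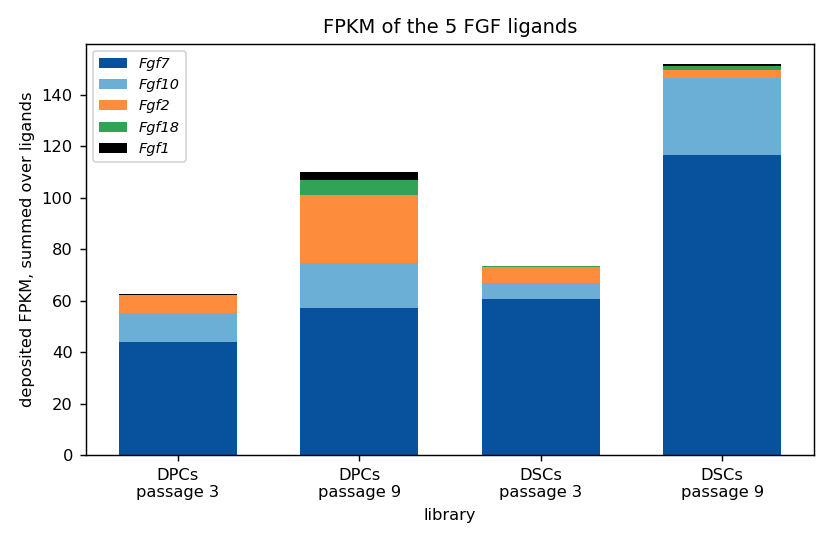
Deposited FPKM of the 5 ligands, stacked (y axis), in each of the 4 libraries (x axis). Fgf7 leads everywhere, from 44.0 in DPCs at passage 3 to 117 in DSCs at passage 9, while Fgf1 and Fgf18 stay at or below 5.82.

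Fgfr1, the main FGF receptor of mesenchyme, was abundant in all 4 libraries. Counts were 11600 in DPCs at passage 3, 17178 in DPCs at passage 9, 9248 in DSCs at passage 3 and 15662 in DSCs at passage 9. The passage 9 library was the higher in each cell type, by a log2 change of 0.60 in DPCs (0.57 to 0.64) and 0.49 in DSCs (0.46 to 0.53). DPCs were above DSCs at both passages, by 0.37 (0.33 to 0.41) and 0.48 (0.45 to 0.51). All of these were short of 2-fold.

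Fgfr2, the receptor whose epithelial form binds Fgf7 and Fgf10, had 949, 420, 980 and 1041 counts in DPCs at passage 3, DPCs at passage 9, DSCs at passage 3 and DSCs at passage 9. The DPC library at passage 9 stood below the other three. Its log2 change was -1.14 in DPCs (-1.31 to -0.97), past 2-fold and short of 4-fold, and -0.18 in DSCs (-0.31 to -0.05). Fgfr1 made up 92.9% of the summed FPKM of the receptors in DPCs at passage 3 and 97.7% at passage 9, and 90.3% and 93.8% in DSCs. The ratio of Fgfr1 to Fgfr2 in FPKM went from 13.0 to 43.1 in DPCs and from 9.33 to 15.2 in DSCs. Fgfr2 is annotated with 27 transcripts, and its exons share 314 bases (3.04%) with Ctbp2 on the same strand, which had 2043, 1181, 1883 and 1595 counts, so counting could assign some reads to either gene.

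The 3 Sprouty genes did not move as one. Spry4 had 492 counts in DPCs at passage 3, 1887 in DPCs at passage 9, 456 in DSCs at passage 3 and 1307 in DSCs at passage 9. Both passage 9 libraries were above both passage 3 libraries, and the log2 change was 1.97 in DPCs (1.83 to 2.12) and 1.25 in DSCs (1.10 to 1.41). Spry4 was thus past 2-fold in both cell types and, in DPCs, just short of 4-fold. Fgf1, Fgf18 and Spry4 were the 3 of 10 members at least 2-fold higher in both cell types, against 4.86% of genes tested, and 0 were 2-fold lower in both, against 3.54%. At this size 5 members were higher and 1 lower in DPCs (backgrounds 16.1% and 15%), and 4 were higher and 1 lower in DSCs (8.55% and 6.21%).

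Spry2 showed the same order with smaller sizes, at 728 and 1465 counts in DPCs and 672 and 1291 in DSCs. Its log2 change was 1.04 in DPCs (0.92 to 1.18) and 0.68 in DSCs (0.54 to 0.81). Spry1 differed between cell types more than between passages. Its counts were 982 and 933 in DPCs and 350 and 595 in DSCs, giving log2 changes of -0.04 (-0.17 to 0.09) and 0.50 (0.31 to 0.70). DPCs were above DSCs by 1.53 (1.35 to 1.71) at passage 3 and by 0.99 (0.84 to 1.14) at passage 9. Of the exonic bases of Spry1, 24.4% overlap the antisense gene model Gm42922, which had 15 to 27 counts.

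By FPKM the leading Sprouty gene was Spry1 in DPCs at passage 3 (9.91, with Spry2 at 8.71 and Spry4 at 2.68) and Spry2 in the remaining libraries, at 17.9 in DPCs at passage 9 and at 7.35 and 11.5 in DSCs. The ratio of Spry4 to Spry1 went from 0.270 to 1.11 in DPCs and from 0.725 to 1.22 in DSCs. Summed FPKM of the 3 genes was 21.3 in DPCs and 12.7 in DSCs at passage 3, and 37.7 and 21.2 at passage 9.

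**Figure D4:**
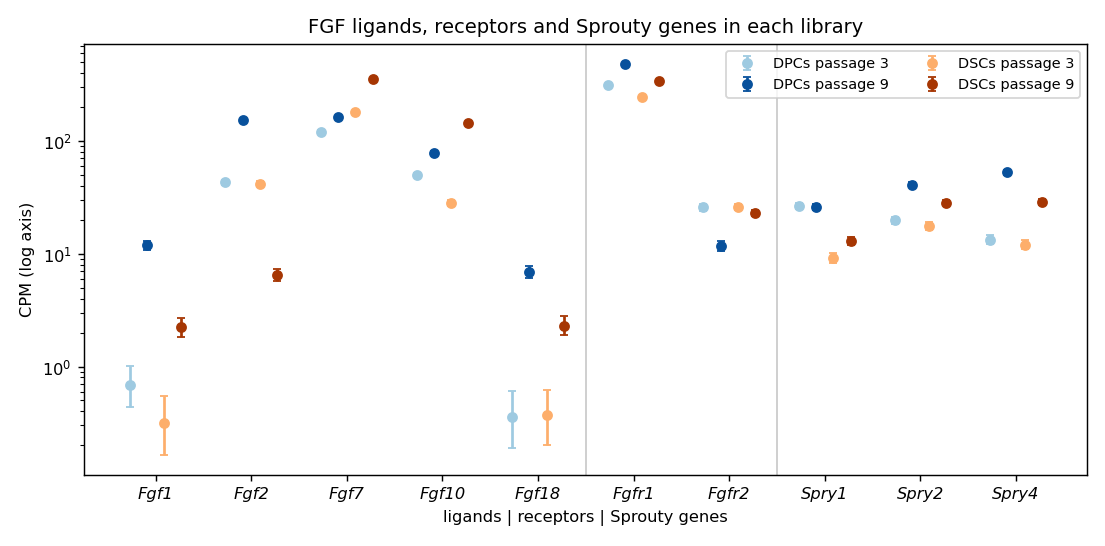
CPM of each of the 10 members (log axis) in the 4 libraries, with 95% exact counting intervals. Fgf1 and Fgf18 lie under 1 CPM in both cell types at passage 3 and above 2 CPM at passage 9, and Fgf2 is spread from 6.47 CPM in DSCs to 153 CPM in DPCs at passage 9.

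Between the cell types, 0 of 10 members differed 4-fold at passage 3, where 1.52% of genes tested were higher and 2.77% lower in DPCs. At passage 9, 2 of 10 were at least 4-fold higher in DPCs (Fgf1 and Fgf2), against 2.5% of genes, and 0 lower, against 3.91%. At the 2-fold level, Spry1 was the 1 member higher in DPCs at passage 3 (background 5.43%) and 0 were lower (7.86%), and at passage 9 Fgf1, Fgf2 and Fgf18 were higher (background 9.11%) and Fgf7 lower (background 11%). These comparisons share libraries with the passage comparisons and are not separate evidence.

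A model with cell type and passage as additive terms can be fitted to the 4 libraries, with 1 residual degree of freedom that reflects how unlike the DPC and DSC responses were and not replicate cultures. In edgeR's quasi-likelihood test with Benjamini-Hochberg adjustment, 0 of 10 members and 0 of 16734 genes (0%) had an adjusted p under 0.05, although 6 members and 2822 genes had an unadjusted p under 0.05. The lowest adjusted p among the members was 0.188 (Fgf1 and Spry4), and the highest was 0.884 (Fgf2). The DESeq2 Wald test on the same model called 955 genes (5.71%) and 4 members: Fgf1 (adjusted p = 4.74e-05), Fgf18 (adjusted p = 0.00108), Spry4 (adjusted p = 0.0011) and Fgf10 (adjusted p = 0.0188).

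Other genes of the pathway were taken from 89 listed names, of which 88 had a row and 75 were tested. In DPCs 8 of the 75 (10.7%) rose at least 4-fold and 2 (2.67%) fell, beside 5.58% and 4.36% of all genes tested. In DSCs 4 (5.33%) rose and 2 (2.67%) fell, beside 2.67% and 1.16%. The median log2 change over the 75 was 0.15 in each cell type. At least 2-fold differences in DPCs were upward for 19 (25.3%) and downward for 10 (13.3%), beside 16.1% and 15% of all genes. In DSCs they were upward for 11 (14.7%) and downward for 4 (5.33%), beside 8.55% and 6.21%, so the downward shares lay under those of all genes in both cell types. In all, 12 of the 75 genes were past 4-fold in at least 1 cell type. The share of all genes past 4-fold by that rule was not computed, so this count has no background beside it.

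**Figure D5:**
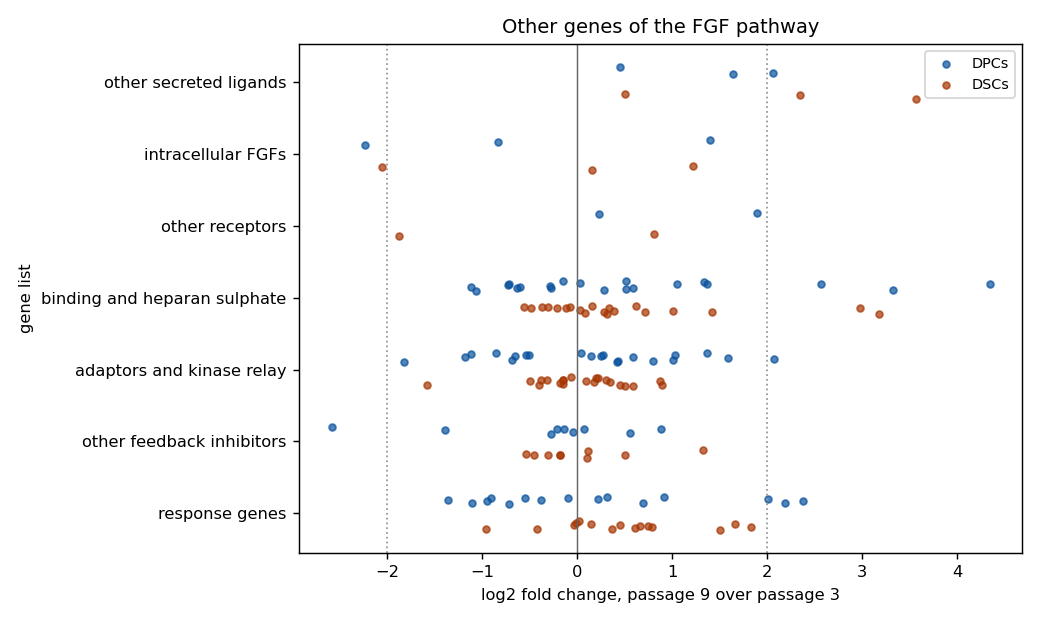
Log2 change from passage 3 to passage 9 of the other FGF pathway genes tested, by list, in DPCs and DSCs (1 library a group, genes with a library at 0 left out). Dotted lines mark 4-fold. Most lie within 4-fold, and Gpc3 (4.34 in DPCs and 2.98 in DSCs) is the highest gene of the heparan sulphate list in DPCs, and Hs3st1 (3.33 and 3.18) is the highest in DSCs.

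Among proteins that bind FGFs or build heparan sulphate, 3 of 20 genes tested rose at least 4-fold in DPCs and 2 in DSCs. The shares over all genes tested were 5.58% and 2.67%. In this list 0 genes fell by that much in either cell type, beside 4.36% and 1.16% of all genes. Gpc3, a glypican, had 664 and 13146 counts in DPCs and 70 and 678 in DSCs, log2 changes of 4.34 and 2.98, and was higher in DPCs at both passages. Hs3st1, a heparan sulphate 3-O-sulphotransferase, had 17 and 183 counts in DPCs and 6 and 84 in DSCs, changes of 3.33 and 3.18. Gpc3 and Hs3st1 are also in the study's own list of raised genes. Sulf2, which removes 6-O-sulphates from heparan sulphate, had 2671 and 15420 counts in DPCs and 2954 and 9482 in DSCs, and its change of 2.56 in DPCs was past 4-fold while that of 1.42 in DSCs was not.

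Of the other ligands, 6 genes (Fgf3, Fgf4, Fgf6, Fgf8, Fgf15 and Fgf20) had no count in any library, which allows at most 3 counts in each. Fgf9, also in the study's list, had 3 and 18 counts in DPCs and 8 and 139 in DSCs. The log2 change was 2.06 in DPCs, with a counting interval of 0.84 to 5.03, and 3.56 (2.84 to 5.09) in DSCs. Fgf22 rose in DSCs from 4 to 34 counts, a log2 change of 2.35 (1.33 to 4.78), and had 7 and 10 counts in DPCs. Fgf16 had 36 counts in DSCs at passage 3 and none at passage 9, at least 14.4-fold lower when 3 counts are taken as the limit, and 0 and 4 counts in DPCs. Fgf13, an intracellular relative that does not act as a secreted ligand, fell in both cell types, with 653 and 134 counts in DPCs (log2 change -2.23) and 390 and 111 in DSCs (-2.06).

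Of the remaining receptors, Fgfrl1, which lacks the kinase domain, was the abundant one, with 463 and 1683 counts in DPCs and 750 and 1579 in DSCs, log2 changes of 1.89 and 0.81. Fgfr3 stayed at 13 to 45 counts and Fgfr4 at 0 to 6. In the relay from receptor to MAP kinase, 1 of 21 genes rose at least 4-fold in DPCs and 0 in DSCs, beside 5.58% and 2.67% of all genes tested. In neither cell type did a gene of this list fall by that much, beside 4.36% and 1.16%. The 1 gene was Flrt2, a membrane protein of the group that binds FGF receptors, with 5910 and 24197 counts in DPCs (2.07) and 18175 and 39944 in DSCs (0.87).

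Of 9 feedback inhibitors tested besides the members, 1 fell at least 4-fold in DPCs and 0 in DSCs, beside 4.36% and 1.16% of all genes tested. In either cell type 0 rose by that much, beside 5.58% and 2.67%. Dusp4, a phosphatase of MAP kinases, fell in DPCs from 519 to 83 counts (log2 change -2.58) and had 407 and 432 counts in DSCs. Dusp6, a phosphatase of ERK, had 775 and 652 counts in DPCs (-0.21) and 694 and 2095 in DSCs (1.33). Of 15 response genes, 3 rose at least 4-fold in DPCs and 0 in DSCs, beside 5.58% and 2.67% of all genes, and 0 fell by that much in either. The list's median log2 change was -0.10 in DPCs and 0.45 in DSCs. By at least 2-fold, 3 of its genes were higher and 2 lower in DPCs, beside 16.1% and 15% of all genes tested. In DSCs 3 were higher and 0 lower, beside 8.55% and 6.21%. The 2 lower in DPCs were Myc, with 1726 and 781 counts (-1.11), and Ccnd1, with 20280 and 7695 counts (-1.36). Etv1, a transcription factor of the ETS family, had 905 and 4583 counts in DPCs (2.37) and 291 and 1110 in DSCs (1.66). Ier3 had 830 and 3694 counts in DPCs (2.19) and 878 and 1817 in DSCs (0.78), and Fos 76 and 303 counts in DPCs (2.0) and 575 and 1964 in DSCs (1.50).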

How the data were processed

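RNA-seq was made from 4 libraries, 1 for each cell type and passage. The labels name a TruSeq RNA kit, whereas the paper's methods give a NEBNext kit after poly-T enrichment. The submitters' processing notes list Bowtie 0.12.2 and the builds mm8 and mm9 without a role, yet the deposited positions of 7 of the 10 members were identical to GENCODE M21 (GRCm38). The counting tool and its strand setting are not given in the sources used here.

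The deposited matrix held raw counts per gene. FPKM values were computed by the authors and deposited in 1 table for each library. No column lacked a sample. Here counts were scaled by TMM (edgeR 4.0.16, limma 3.58.1, R 4.3.3) and genes averaging 10 or more raw counts were kept. Changes were taken on the log2 CPM scale, the prior count being 2. Intervals are exact Clopper-Pearson 95% intervals on the share of counts. They cover counting error only, and since both mates of a pair may have been counted (65.6% to 69.1% of counts from 2 to 7 were even), true intervals may be wider. FPKM changes used a pseudocount of 0.1. The passage term of the additive model was tested in edgeR and, as an alternative, in DESeq2 1.42.0. The scripts were tested on simulated data.

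All members are named, as are pathway genes past 4-fold in at least 1 cell type, and for members called in both cell types the 3 genes nearest in pattern (mean count at least 100). Fgfr3, Fgfr4, Fgfrl1, Dusp6, Myc, Ccnd1 and genes without a count were named after their values were seen. The members and the lists (ligands, intracellular FGFs, receptors, heparan sulphate, relay, feedback and response genes, proliferation and cell type markers) were chosen with earlier results of these data known. Melanocyte markers summed to 11.2 to 28.3 CPM, muscle markers to at most 0.29 CPM, sheath markers to 3759 to 10118 CPM and papilla markers to 191 to 461 CPM.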

Additional observations from a re-analysis of the deposited data

Results flagged for a closer look

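Fgf2 was set apart because its passage changes ran in opposite directions: the log2 change was 1.83 in DPCs and -2.69 in DSCs, a difference of 4.51. With 1 library a group the difference was not tested. In FPKM the changes were 1.91 and -1.06.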

How the results depend on the processing

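No paired analysis was possible because the labels give no replicate numbers and each group had 1 library, so no library could be left out; cell type was a term of the additive model. Of the 40 member values, the sign was the same for 38 with total counts, 39 with DESeq2 size factors, 39 with upper quartile scaling, 40 with a prior count of 0.5, 40 with a prior count of 10 and 39 with FPKM; those that changed sign lay near 0 at passage 3 (Fgf18 and Fgfr2). Values stayed within their counting interval for 30 of the 40 with FPKM (largest log2 shift 1.62), 35 with total counts and 40 in each remaining setting. With FPKM, 1 member in place of 2 differed 4-fold between cell types at passage 9, and 3 in place of 4 across passage in DSCs. Pathway genes past 4-fold then numbered 7 in place of 10 in DPCs and 4 in place of 6 in DSCs. They numbered 8 and 4 with a prior count of 10, and 12 and 7 with no filter. With a mean count of at least 100, which leaves out Fgf18, 1 member in place of 2 was past 4-fold in DPCs and 1 in place of 2 in both cell types, and 2 pathway genes in place of 6 in DSCs. With a 2-fold threshold the counts were 6 members in DPCs, 1 between cell types at passage 3 and 4 at passage 9, and 29 pathway genes in DPCs and 15 in DSCs, in place of 2, 0, 2, 10 and 6. The additive model called 4 members in DESeq2's Wald test and 0 in edgeR. Of 40 member intervals 35 excluded 0, and 32 did after all counts were halved. The 3 lost were Fgf1 and Spry2 between cell types at passage 3 and Fgfr2 across passage in DSCs. The matching share over all genes was not computed, so these numbers do not set the members apart from other genes. No member value past 4-fold changed direction under the alternatives run; pathway genes were followed under them as counts.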

Other observations

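Members of the family lie close together in 2 places. Fgf1 and Spry4 are 237 kb apart on chromosome 18, with 3 annotated genes between them, 0 of which were tested. Fgf2 and Spry1 are 229.8 kb apart on chromosome 3, with 5 genes between them. The 1 of these that was tested, Spata5, had log2 changes of -0.16 in DPCs and -0.06 in DSCs. Across passage in DPCs the log2 changes were 4.03 for Fgf1 and 1.97 for Spry4, and 1.83 for Fgf2 and -0.04 for Spry1. In DSCs they were 2.64 for Fgf1 and 1.25 for Spry4, and -2.69 for Fgf2 and 0.50 for Spry1.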
